A study of Mus musculus with 31 samples.

Results

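The genes described here are 32 genes of cholesterol synthesis and sterol control, taken by symbol as a fixed list from the 22609 genes listed in both expression tables. They fall into 8 enzymes of the mevalonate segment, 11 enzymes from squalene to cholesterol, 4 genes that control sterol-sensing transcription, 4 genes of sterol transport and esterification, and 5 genes of the liver X receptor (LXR) arm. Of the 32, 31 could be compared at each stage. Hmgcs1, the cytosolic synthase that makes hydroxymethylglutaryl-CoA, was listed at 0 in all 12 columns, as were 2781 genes in all, so no statement about it is possible.

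Poly(A) RNA of mouse mammary gland, taken without lymph nodes, was sequenced at day 6 of pregnancy and at parturition, within 12 hours of delivery. The strain was 129SV::FVB/N::C57BL/6 throughout. The groups differ in how many functional alleles of the adjacent genes Stat5a and Stat5b they carry. Null mice (Stat5abfl/fl;MMTV-Cre, 0 alleles) lost both genes where the MMTV-driven Cre recombinase acts, which the labels give as the mammary epithelium, so their stroma keeps both genes. B mice (Stat5abnull/Stat5a-) kept 1 Stat5b allele and A mice (Stat5abnull/Stat5b-) kept 1 Stat5a allele, in all cells. BB mice (Stat5a-/-) kept 2 Stat5b alleles, AB mice (Stat5ab+/null) kept 1 allele of each gene, and AABB stands for wild type with 4 alleles. The study's text also calls Stat5abfl/fl mice AABB. Null therefore differs from B and A in the cells that lost the genes as well as in allele number. At day 6 the labels list 18 samples (3 of every genotype), and at parturition 13 (3 B, and 2 of every other genotype). The protocol, however, gives 2 mice as the source of each genotype's tissue, which all 6 genotypes at day 6 and B at parturition exceed, so some samples may share an animal.

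Each table holds 1 column per genotype, the authors' mean in FPKM (fragments counted relative to transcript length and to the number mapped). A mean has no spread, so values below carry no SD or n, differences could not be checked against replicates, and no test was possible. Read depth is unknown. The unit of level used here, scaled FPKM, is FPKM divided by a factor for each column, set by the median ratio over genes present in all 6 columns of the stage. Because FPKM is per transcript length, levels can also be set between genes. A ratio is given as log2 of (scaled FPKM + 1) in one column over the other. This scale understates differences of weakly expressed genes. A gene was called higher or lower when it differed at least 2-fold on that scale. All ratios to AABB at a stage share 1 AABB column. As a check of the labels, Stat5a at parturition was 6.91 in Null, 8.55 in B, 16.4 in A, 4.28 in BB, 22.8 in AB and 70.3 scaled FPKM in AABB. Stat5b was 7.60 in Null, 12.5 in B, 10.3 in A, 12.5 in BB, 11.2 in AB and 25.2 in AABB. At day 6 Stat5a was 13.6 in Null, 12.5 in B, 15.9 in A, 3.66 in BB, 13.4 in AB and 33.5 in AABB, and Stat5b was 9.01 in Null, 12.3 in B, 10.6 in A, 14.9 in BB, 11.6 in AB and 16.6 in AABB. The columns labelled B, A and BB thus still hold transcript of the gene their labels give as lost, and at day 6 these transcripts barely part A from B. Directions given for these columns refer to the labels.

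Cholesterol is made from acetyl-CoA through mevalonate, isoprenoid diphosphates, squalene and lanosterol. When membranes of the endoplasmic reticulum are low in sterol, SCAP escorts SREBP2 to the Golgi apparatus, where it is cut to release a transcription factor that raises nearly the whole enzyme set, while INSIG proteins hold the complex back when sterol is plentiful. Oxysterols activate the LXR receptors, which raise the exporters ABCA1 and ABCG1 and the ubiquitin ligase MYLIP that removes the LDL receptor. The lactating mammary gland makes cholesterol for the milk fat globule and its own secretory membranes, and prolactin acts on its epithelium through STAT5.

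Promoter sequence of 26 of the 32 genes was available from RefSeq (GRCm38.p6), in 33 windows that run from 250 bases before to 50 bases after each listed start. The genes without a window there are Sqle, Fdft1, Stard4, Abcg1, Fdps and Npc1. SREBP2 is known to act beside the factor NF-Y, which binds the letters CCAAT, so this motif was searched on both strands together with 5 others, all chosen with the expression values known. CCAAT was found in 21 of the 26 genes and in 15 of the 16 enzymes with a window, against 41.1% of all 27025 genes with a window and 42.7% of the genes with a window that were compared at parturition. The only enzyme without it was Acat2. GGGCGG, the GC box of Sp1-type factors, was found in 22 of 26 genes, against 38.2% of all genes and 68.4% of the compared genes. The E-box letters CACGTG were found in 6 of 26, against 8.09% of all genes and 11.7% of the compared genes. The sterol-element letters TCACNCCAC were found only in Hmgcs1, against 1.44% of all genes, and their shorter form CACNCCAC, which overlaps them, in Acat2, Hmgcs1 and Insig1, against 7.12%. TTCNNNGAA, the letters of a STAT element, was found in Ebp and Ggps1, 2 of 26, against 9.55% of all genes. Genes with several listed starts have more windows in which a match can occur, and a match is a description of letters, not of binding.

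**Figure D1:**
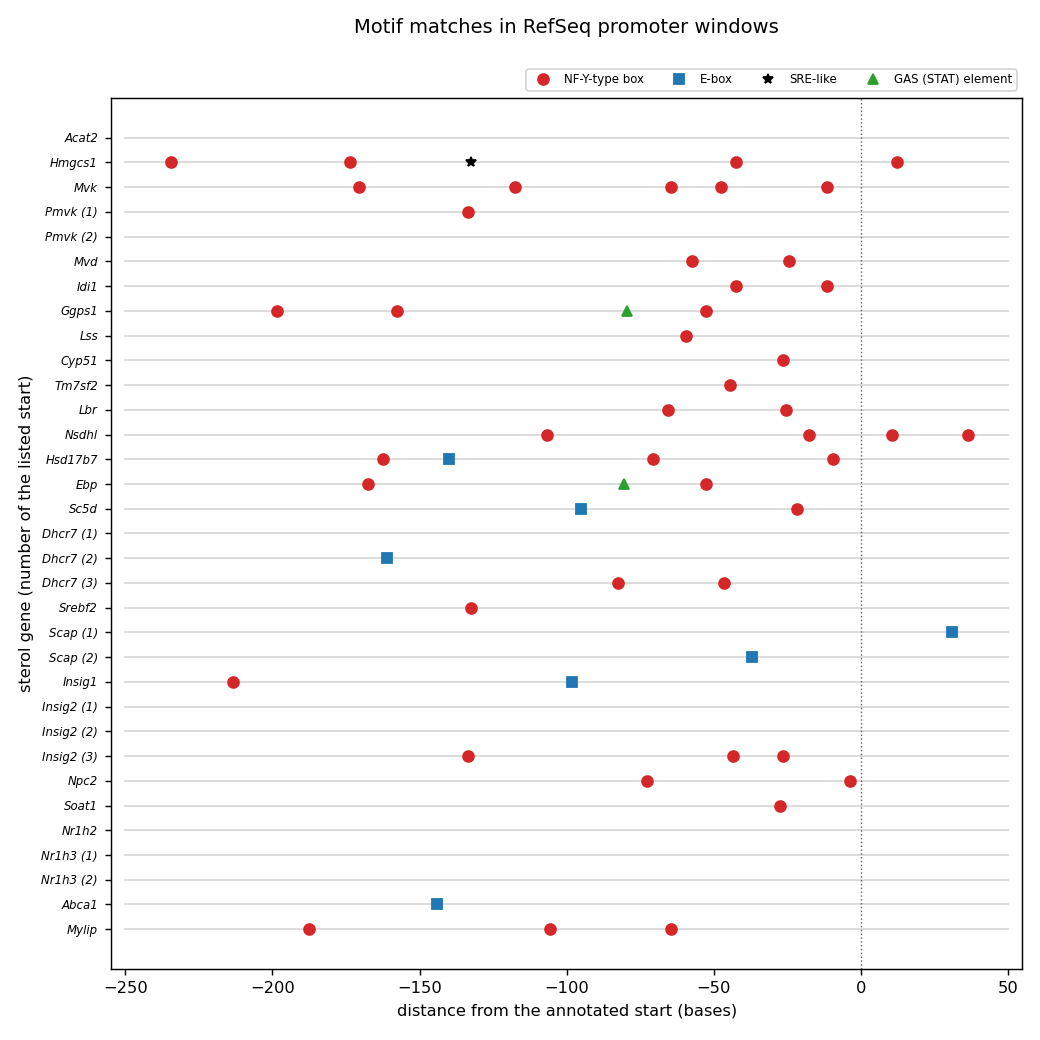
Positions of motif matches in the RefSeq promoter windows of the sterol genes. The x axis is the distance from the annotated start in bases (0 is the start), each row is 1 listed start of a gene, and each symbol is a match on either strand of the NF-Y-type box, the E-box, the SRE-like element or the GAS (STAT) element. The NF-Y-type box occurs in 15 of the 16 enzymes with a window, the SRE-like letters only in Hmgcs1 and the GAS letters only in Ebp and Ggps1.

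The 180 bases before the start are printed for 7 genes with a single listed start, to show the letters in genes that were among the lowest and highest. Mvd, Ebp, Hsd17b7, Tm7sf2, Idi1 and Cyp51 had the lowest Null to AABB ratios at parturition among such genes, and Abca1 had the highest. Sequences run 5′ to 3′ on the gene's strand, and capitals mark CCAAT or its complement ATTGG and the E-box CACGTG. The windows are chr8:122443423-122443602 (minus strand) for Mvd, chrX:8193513-8193692 (minus) for Ebp, chr1:169969206-169969385 (minus) for Hsd17b7, chr19:6067851-6068030 (minus) for Tm7sf2, chr13:8885426-8885605 (plus) for Idi1, chr5:4104698-4104877 (minus) for Cyp51 and chr4:53159896-53160075 (minus) for Abca1, all in GRCm38.p6. The 6 enzymes each hold at least 1 marked CCAAT box, while the Abca1 window holds an E-box and no CCAAT box. The box is not limited to lower genes: Soat1 and Mylip, 2-fold higher in Null and with a single listed start, hold 1 and 3 CCAAT boxes.
Mvd: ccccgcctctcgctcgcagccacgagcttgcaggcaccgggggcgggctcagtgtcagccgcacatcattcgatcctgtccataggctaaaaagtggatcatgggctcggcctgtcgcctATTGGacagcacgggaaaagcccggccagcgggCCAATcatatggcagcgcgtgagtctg
Ebp: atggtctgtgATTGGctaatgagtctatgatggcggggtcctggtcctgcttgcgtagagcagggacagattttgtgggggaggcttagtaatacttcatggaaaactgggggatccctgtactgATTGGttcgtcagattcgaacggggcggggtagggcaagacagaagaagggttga
Hsd17b7: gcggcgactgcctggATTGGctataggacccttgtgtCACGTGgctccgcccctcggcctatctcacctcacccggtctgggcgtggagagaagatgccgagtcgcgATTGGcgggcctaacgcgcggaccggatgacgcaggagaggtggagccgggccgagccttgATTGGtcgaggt
Tm7sf2: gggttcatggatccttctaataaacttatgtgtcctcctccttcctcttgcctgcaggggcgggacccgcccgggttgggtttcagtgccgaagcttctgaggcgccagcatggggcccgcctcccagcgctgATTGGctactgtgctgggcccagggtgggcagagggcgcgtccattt
Idi1: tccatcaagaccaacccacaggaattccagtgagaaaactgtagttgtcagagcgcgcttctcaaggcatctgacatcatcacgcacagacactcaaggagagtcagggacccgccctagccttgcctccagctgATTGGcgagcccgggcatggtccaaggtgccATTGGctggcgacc
Cyp51: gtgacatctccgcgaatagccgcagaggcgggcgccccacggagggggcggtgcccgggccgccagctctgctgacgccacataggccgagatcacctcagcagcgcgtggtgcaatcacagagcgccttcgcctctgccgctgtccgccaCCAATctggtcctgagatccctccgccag
Abca1: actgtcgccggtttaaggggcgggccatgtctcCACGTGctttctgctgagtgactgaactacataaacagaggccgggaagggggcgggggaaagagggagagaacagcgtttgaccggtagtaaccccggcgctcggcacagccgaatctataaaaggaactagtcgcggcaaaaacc

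At parturition most enzymes of the pathway stood lower in every genotype with reduced Stat5 than in wild type. Of the 18 enzymes compared, all 18 were below AABB in B, A, BB and AB and 16 were below it in Null. Those at least 2-fold lower numbered 11 in Null, 14 in B, 14 in A, 12 in BB and 8 in AB, and none was 2-fold higher in any of them. Over all 31 genes compared, 12 were lower and 5 higher in Null, against a background of 10.7% of the 13061 compared genes lower and 19.0% higher. In B 17 were lower and 6 higher (10.1% and 18.2% of all genes), and in A also 17 lower and 6 higher (10.0% and 17.3%). In BB 14 were lower and 1 higher (5.37% and 8.05%), and in AB 10 were lower and 2 higher (5.44% and 10.2%). The median log2 ratio of the 18 enzymes was −1.22 in Null, −1.63 in B, −1.63 in A, −1.21 in BB and −0.96 in AB. Over all compared genes the medians were 0.10, 0.11, 0.10, 0.05 and 0.04 in the same order.

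The size of this difference depends on how the columns are scaled. Without scaling, the median of all genes lay at 0.50 in Null, 0.53 in B, 0.50 in A, 0.30 in BB and 0.23 in AB, and the enzymes 2-fold lower then numbered 7, 10, 10, 7 and 2 in that order, while 5.99%, 4.88%, 4.88%, 3.06% and 3.35% of all genes were lower. Enzymes below AABB then numbered 14, 17, 17, 16 and 16. Measured from the median of all genes, the enzyme median was −1.32 with scaling and −1.25 without it in Null, −1.73 and −1.66 in B, −1.73 and −1.66 in A, −1.26 and −1.20 in BB, and −1.005 and −0.96 in AB. Milk protein transcripts took a large part of the wild-type column: the 8 milk protein genes summed to 1812 in Null, 5142 in B, 16838 in A, 317622 in BB, 314851 in AB and 923702 scaled FPKM in AABB.

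**Figure D2:**
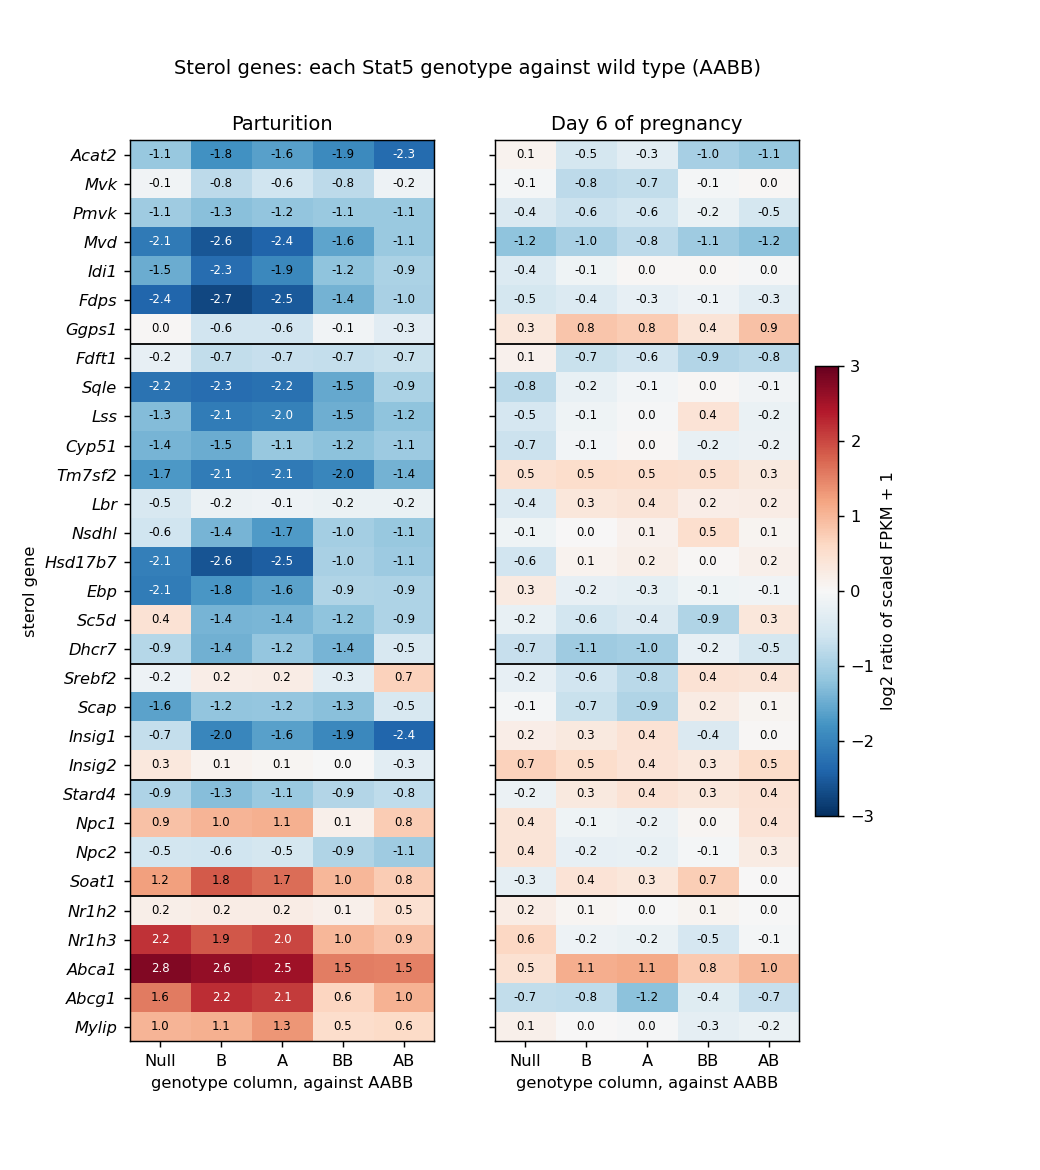
Log2 ratio of scaled FPKM + 1 of each genotype column (x axis: Null, B, A, BB, AB) to the AABB column for the 31 compared sterol genes (y axis), at parturition on the left and day 6 of pregnancy on the right, with the value printed in each cell. Lines part the mevalonate enzymes, the sterol enzymes, the control genes, the transport and ester genes and the LXR genes. At parturition the enzymes are mostly blue (lower) and the LXR genes red (higher), whereas at day 6 most cells lie within 1 log2 unit of 0.

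In the mevalonate segment, the condensing enzyme Acat2 (cytosolic acetoacetyl-CoA thiolase) was 36.3 in Null, 22.1 in B, 25.3 in A, 20.8 in BB, 15.6 in AB and 81.0 scaled FPKM in AABB. It was the only enzyme lowest in AB, at 19.3% of AABB. Pmvk, the second kinase of the segment, was 31.3 in Null, 27.2 in B, 28.9 in A, 30.4 in BB, 30.3 in AB and 66.4 in AABB. All 5 reduced genotypes thus lay close together for Pmvk, at 41.0% to 47.1% of AABB. Mvd, the decarboxylase that makes isopentenyl diphosphate, was 12.9 in Null, 9.16 in B, 10.4 in A, 19.1 in BB, 27.1 in AB and 59.4 in AABB. Idi1, which isomerises isopentenyl diphosphate, was 27.7 in Null, 15.7 in B, 20.1 in A, 34.0 in BB, 41.0 in AB and 80.0 in AABB. Fdps (farnesyl diphosphate synthase), the most abundant enzyme transcript of the list in AABB, was 39.5 in Null, 31.2 in B, 36.1 in A, 77.9 in BB, 107 in AB and 211 in AABB. Mvd, Idi1 and Fdps shared one order, with B lowest, then A, Null, BB and AB, and AABB highest. The log2 ratio of Fdps to AABB was −2.39 in Null, −2.72 in B, −2.52 in A, −1.43 in BB and −0.97 in AB, so it passed 2-fold in all but AB. Mvk, the first kinase, and Ggps1, which makes the geranylgeranyl diphosphate used to lipidate proteins, passed 2-fold in no genotype and ranged from 55.4% to 92.5% and from 64.4% to 103% of AABB.

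Between squalene and lanosterol, Sqle (squalene epoxidase) was 19.6 in Null, 18.8 in B, 19.5 in A, 32.2 in BB, 48.9 in AB and 95.1 scaled FPKM in AABB. Null, B and A were nearly equal for this enzyme, at 19.7% to 20.6% of AABB, and AB stood at 51.4%. Lss (lanosterol synthase) was 14.6 in Null, 7.93 in B, 8.43 in A, 12.9 in BB, 15.6 in AB and 37.4 in AABB. Fdft1 (squalene synthase), the enzyme just before them, passed 2-fold in no genotype and ranged from 58.7% to 83.9% of AABB.

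After lanosterol, Cyp51 (the lanosterol demethylase) was 17.3 in Null, 16.1 in B, 20.9 in A, 19.7 in BB, 21.9 in AB and 47.4 scaled FPKM in AABB. Tm7sf2, a sterol reductase of the following step, was 5.53 in Null, 4.02 in B, 3.98 in A, 4.54 in BB, 7.13 in AB and 20.6 in AABB. Lbr, an inner nuclear membrane protein with the same reductase activity, differed from it in that it passed 2-fold nowhere and stayed between 70.1% and 90.0% of AABB. Acat2, Pmvk, Mvd, Lss, Cyp51 and Tm7sf2 were the 6 genes of the list that were 2-fold lower in all 5 genotypes, as were 2.51% of all compared genes. Without scaling Tm7sf2 alone was (1.32% of all genes), and Mvd, Idi1, Fdps, Sqle, Tm7sf2, Hsd17b7 and Ebp were the 7 that were 2-fold lower in all of Null, B and A (3.67%). With scaling 11 enzymes and Scap were (7.07%). Nsdhl and Hsd17b7 belong to the complex that removes methyl groups from the sterol ring.

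Nsdhl (the decarboxylating dehydrogenase of that complex) was 28.9 in Null, 16.3 in B, 12.9 in A, 21.2 in BB, 19.7 in AB and 44.1 scaled FPKM in AABB. Hsd17b7 (its ketoreductase) was 4.77 in Null, 2.99 in B, 3.29 in A, 11.1 in BB, 10.3 in AB and 22.9 in AABB. Relative to AABB, Hsd17b7 was the lowest enzyme of all in B, at 13.0%, and in A, at 14.3%. Ebp, the sterol isomerase, was 21.6 in Null, 27.5 in B, 30.4 in A, 50.4 in BB, 49.7 in AB and 95.0 in AABB. Ebp and Lbr were the 2 enzymes lowest in Null. Dhcr7, the reductase of a final step that yields cholesterol, was 16.6 in Null, 10.7 in B, 13.1 in A, 11.0 in BB, 21.7 in AB and 30.7 in AABB.

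Sc5d, the desaturase before Dhcr7, broke the pattern, with 78.6 in Null, 21.2 in B, 21.6 in A, 24.5 in BB, 30.1 in AB and 57.7 scaled FPKM in AABB. It was the enzyme furthest above wild type in Null, at 136% of AABB, and 1 of the 2 not below AABB there. The other was Ggps1, at 103%. Summed over the 19 listed enzymes, the level was 418 in Null, 278 in B, 304 in A, 421 in BB, 501 in AB and 1022 scaled FPKM in AABB. The sum in Null was 40.9% of that in AABB, in B 27.2%, in A 29.8%, in BB 41.1% and in AB 49.0%.

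**Figure D3:**
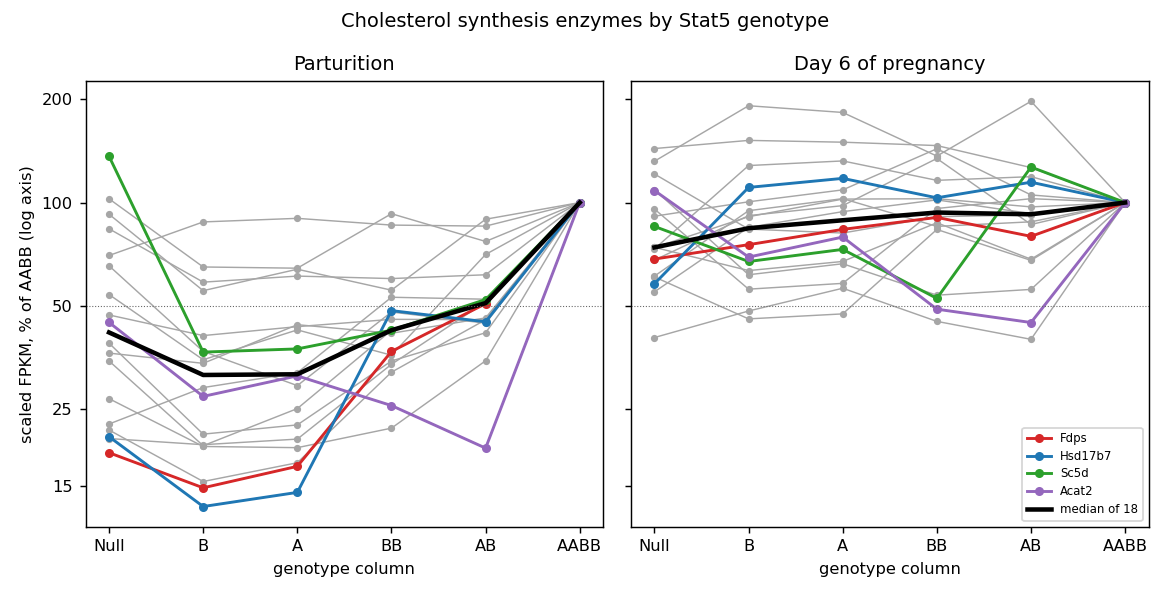
Scaled FPKM of the 18 compared synthesis enzymes as a percentage of the AABB column (y axis, log scale) in each genotype column (x axis), at parturition on the left and day 6 of pregnancy on the right. Grey lines are single enzymes, coloured lines the 4 named in the legend and the black line the median, which at parturition is 41.9% in Null, 31.5% in B, 31.6% in A, 42.5% in BB and 51.0% in AB and at day 6 lies between 74.0% and 93.5%.

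At parturition most enzymes stood lower in B and A, with 1 allele in all cells, than in Null, with 0 alleles in epithelium. Allele number and the cells that lost the genes both differ there and cannot be told apart. The column orders given here were tabulated after the values had been seen. AABB was the highest of the 6 columns for 16 of 18 enzymes, against 28.2% of all compared genes, and B was the lowest for 12 of 18, against 7.14%. Null was above both B and A for 15 of 18 enzymes, against 45.6% of all genes, and the same 15 without scaling. At day 6 Null was above both for 7 of 18 enzymes, against 44.1% of all genes. Without scaling, AABB was highest for 13 (13.1% of all genes) and B lowest for 7 (2.61%). The 2 comparisons added after the values were seen, Null against B and Null against A, gave few calls. Against B, Sc5d and Insig1 were 2-fold higher in Null (2.86% of all genes) and none was lower (2.71%), with an enzyme median of 0.51. Against A, Sc5d and Nsdhl were 2-fold higher in Null (3.17%) and none was lower (3.49%), with an enzyme median of 0.41. White adipocyte markers also differed between these columns, with a sum over 10 genes of 21325 in Null against 16056 in B and 17718 in A. Luminal epithelial markers summed over 12 genes to 1374 in Null against 2430 in B and 2444 in A. The part of these cell types in the order was not tested.

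At equal allele number, few sterol genes differed 2-fold between columns that differ in the STAT5 protein kept. No gene of the list differed 2-fold between A and B at parturition, where 0.360% of all genes were higher in A and 0.329% lower, and log2 ratios ran from −0.31 for Nsdhl to 0.35 for Cyp51. Below that threshold, A was above B for 15 of 18 enzymes at parturition, against 48.2% of all compared genes. At day 6 A was also above B for 15 of 18 (48.3%). Without scaling these numbers were 14 (39.0%) at parturition and 15 (48.7%) at day 6. Between AB and BB, Srebf2 alone passed 2-fold at parturition, higher in AB at 34.4 against 16.7 scaled FPKM in BB, where 1.06% of all genes were higher and 0.720% lower. Its log2 ratio of 1.00 lay at the threshold, and no gene passed it without scaling. Dhcr7 was next, at 21.7 in AB against 11.0 in BB, a log2 ratio of 0.91. AB was above BB for 11 of 18 enzymes at parturition (48.6% of all genes) and for 8 of 18 at day 6 (47.1%). These counts rest on means without spread and show neither that the proteins act alike nor that they act differently.

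The genes that sense sterol did not follow the enzymes as a group. Srebf2, which encodes SREBP2, was 18.5 in Null, 24.2 in B, 24.6 in A, 16.7 in BB, 34.4 in AB and 20.9 scaled FPKM in AABB at parturition, within 2-fold of AABB throughout. Scap, its escort protein, was 14.4 in Null, 19.6 in B, 19.8 in A, 18.4 in BB, 32.5 in AB and 45.5 in AABB, and was 2-fold lower in all but AB. Insig1, a retention protein whose own gene is a target of SREBP2, was 208 in Null, 87.0 in B, 110.5 in A, 88.7 in BB, 65.4 in AB and 343 in AABB. It was the most abundant transcript of the list in AABB and was 2-fold lower in all but Null. Insig2, the second retention protein, was 21.0 in Null, 18.2 in B, 17.4 in A, 16.6 in BB, 13.2 in AB and 16.7 in AABB, within 2-fold throughout. Insig1, like Acat2, was lowest in AB, the reduced genotype in which Fdps, Sqle and Mvd were highest.

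Genes that move sterol within the cell went both ways. Stard4, a cytosolic sterol carrier and SREBP2 target, was 5.72 in Null, 4.27 in B, 4.88 in A, 5.97 in BB, 6.48 in AB and 11.8 scaled FPKM in AABB, and was 2-fold lower in B and A. Npc2, the soluble lysosomal sterol-binding protein, was 117 in Null, 113 in B, 119 in A, 91.0 in BB, 81.4 in AB and 172 in AABB, and passed 2-fold in AB only. Its membrane partner Npc1 was 11.7 in Null, 12.9 in B, 13.4 in A, 6.58 in BB, 10.6 in AB and 5.84 in AABB. The partners of the lysosomal exit step thus stood on opposite sides of wild type, with Npc1 2-fold higher in B and A. Soat1, which esterifies cholesterol for storage, was 4.61 in Null, 7.51 in B, 6.66 in A, 3.74 in BB, 3.06 in AB and 1.39 in AABB. It was 2-fold higher in Null, B and A, and its log2 ratio was 0.99 in BB.

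All 5 genes of the LXR arm were lowest in wild type at parturition, as were 37.3% of all compared genes. Without scaling all 5 still were, as were 54.5% of all compared genes. Nr1h3, which encodes LXR alpha, was 33.2 in Null, 26.3 in B, 29.3 in A, 14.1 in BB, 12.7 in AB and 6.55 scaled FPKM in AABB. Nr1h2, which encodes the widely expressed LXR beta, was 35.4 in Null, 36.1 in B, 36.3 in A, 34.5 in BB, 42.8 in AB and 31.0 in AABB, within 2-fold throughout. The 2 receptors were near equal in Null, at 33.2 for Nr1h3 and 35.4 for Nr1h2, while in AABB Nr1h3 lay far below Nr1h2. Abca1, which exports cholesterol to lipid-poor apolipoprotein A-I, was 26.4 in Null, 23.7 in B, 22.2 in A, 10.5 in BB, 10.3 in AB and 2.98 in AABB. It was the only gene of the list 2-fold higher in all 5 genotypes, as were 4.90% of all compared genes, and without scaling Nr1h3 joined it (7.81%). The log2 ratio of Abca1 to AABB was 2.79 in Null, 2.63 in B, 2.55 in A, 1.53 in BB and 1.50 in AB. Abcg1, which exports cholesterol to formed lipoprotein particles, was 5.09 in Null, 8.62 in B, 7.79 in A, 2.20 in BB, 3.25 in AB and 1.06 in AABB. Mylip was 27.2 in Null, 28.6 in B, 34.3 in A, 19.3 in BB, 20.1 in AB and 13.0 in AABB, and was 2-fold higher in Null, B and A. Nr1h3, Abca1, Abcg1, Mylip and Soat1 were the 5 genes 2-fold higher in all of Null, B and A, as were 12.7% of all compared genes. Without scaling Npc1 joined them, and 21.1% of all genes were. Counted over the 31 compared genes of the list, these numbers lie close to the shares of all genes, as does that of Abca1 alone. Within the LXR arm, 4 of 5 genes were among those higher in Null, B and A.

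LXR alpha and both exporters are well expressed in fat cells and macrophages, and most markers of these cells also stood higher at parturition. The 10 white adipocyte markers summed to 21325 in Null, 16056 in B, 17718 in A, 6997 in BB, 6016 in AB and 3738 scaled FPKM in AABB. All 10 were 2-fold higher in Null, B and A, and 6 of 10 in BB and in AB. The 10 macrophage markers summed to 361 in Null, 887 in B, 923 in A, 716 in BB, 688 in AB and 303 in AABB. In that order of the reduced genotypes, 7, 9, 9, 8 and 8 of 10 were at least 2-fold higher. Of all compared genes, 19.0%, 18.2%, 17.3%, 8.05% and 10.2% were. The macrophage list went both ways in Null, with log2 ratios from −2.11 to 2.13. Its lowest ratio was −0.07 in B, 0.44 in A, 0.88 in BB and 0.83 in AB. Among the LXR genes and Soat1, only Nr1h3 had the same order over the columns as the white adipocyte sum, highest in Null and then A, B, BB, AB and AABB. Abca1 was also highest in Null but stood higher in B than in A. Abcg1 and Soat1 were highest in B, Mylip in A and Nr1h2 in AB. The 8 fibroblast markers summed to 2204 in Null, 1972 in B, 1603 in A, 2344 in BB, 2310 in AB and 394 in AABB, and all 8 were 2-fold higher in each reduced genotype. Skeletal muscle markers, 8 genes, summed to 3045 in Null, 1840 in B, 1830 in A, 15.2 in BB, 12.5 in AB and 187 in AABB. The summed level of the 6 brown adipocyte markers was lower in the reduced genotypes, as the enzymes were, at 92.8 in Null, 66.4 in B, 64.2 in A, 319 in BB, 249 in AB and 1844 in AABB. In Null, B and A 2 of the 6 were 2-fold lower and 2 higher, in BB 1 was lower and in AB 3. Of the sum Cidea alone gave 1817 in AABB, and Ucp1, the defining gene of brown fat, was 4.00 in Null, 4.69 in B, 0.564 in A, 21.5 in BB, 3.67 in AB and 11.7 in AABB. The 5 B cell markers summed to between 3.14 in A and 22.4 in AB, with 22.3 in AABB. No marker of these lists was at 0 in AABB. In whole tissue, fewer cells of a type and less RNA per cell cannot be told apart, and the part of these cell types in the sterol values was not tested.

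Luminal epithelial markers were not lower along with the enzymes in B, A, BB or AB, while in Null their sum was lower than in AABB. Their sum over 12 genes was 1374 in Null, 2430 in B, 2444 in A, 2552 in BB, 2334 in AB and 1658 scaled FPKM in AABB, and their median log2 ratio to AABB was −0.01 in Null, 0.78 in B, 0.67 in A, 0.47 in BB and 0.62 in AB. Of the 12, 3 were 2-fold lower in Null, 1 in B, 1 in A and none in BB or AB. Of all compared genes, 10.7%, 10.1%, 10.0%, 5.37% and 5.44% were 2-fold lower in Null, B, A, BB and AB. The list went both ways, with log2 ratios from −2.21 to 1.85 in Null, −1.44 to 2.08 in B and −1.43 to 1.91 in A. In BB they ran from −0.92 to 1.45 and in AB from −0.44 to 1.29. The 8 basal epithelial markers summed to 570.4 in Null, 1141 in B, 949.9 in A, 2107 in BB, 1459 in AB and 879 in AABB.

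**Figure D4:**
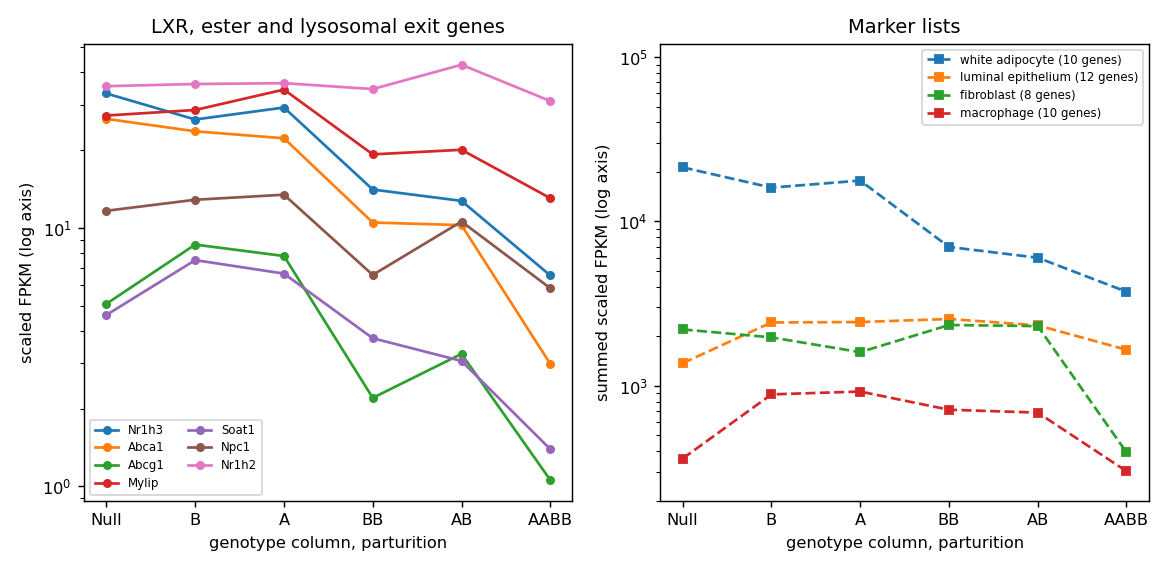
Left, scaled FPKM (log axis) at parturition of the LXR genes with Soat1 and Npc1 in each genotype column. Right, summed scaled FPKM (log axis) of the white adipocyte, luminal epithelium, fibroblast and macrophage marker lists in the same columns. Abca1 stands at 26.4 in Null and 2.98 in AABB, and the white adipocyte sum at 21325 in Null and 3738 in AABB.

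At day 6 of pregnancy the same genes differed little between genotypes. Of 31 compared genes, Mvd alone was 2-fold lower in Null, where 2.09% of 13367 compared genes were lower and 2.21% higher. Dhcr7 was lower and Abca1 higher in B (5.18% lower and 7.53% higher over all genes). In A, Dhcr7 and Abcg1 were lower and Abca1 higher (5.53% and 7.00%). Acat2 and Mvd were lower in BB (3.60%, with 5.11% higher) and in AB (5.00%, with 6.75% higher). These few calls are close to what the shares of all genes give for 31 genes. The enzyme medians were −0.41 in Null, −0.24 in B, −0.17 in A, −0.09 in BB and −0.11 in AB, and the enzyme sum stood at 83.9%, 76.2%, 82.1%, 84.3% and 82.0% of AABB in that order. Luminal epithelial markers at day 6 summed to 1718 in Null, 1379 in B, 1255 in A, 1439 in BB, 982 in AB and 2136 scaled FPKM in AABB, and brown adipocyte markers to 562 in Null, 129.5 in B, 132 in A, 113 in BB, 154 in AB and 1378 in AABB. White adipocyte markers summed to 37771 in Null, 17844 in B, 18872 in A, 15118 in BB, 21159 in AB and 17533 in AABB. Macrophage markers summed to 702 in Null, 1097 in B, 911 in A, 1022 in BB, 893 in AB and 944 in AABB. Fibroblast markers summed to 1849 in Null, 4594 in B, 4315 in A, 9057 in BB, 8292 in AB and 2097 in AABB. The part of these cell types in the day 6 values, that of Abca1 among them, was not tested.

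Mvd at day 6 was 8.64 in Null, 10.3 in B, 12.0 in A, 9.63 in BB, 8.54 in AB and 21.4 scaled FPKM in AABB, so every reduced genotype lay at or below 56.3% of wild type. Acat2 was 61.0 in Null, 39.0 in B, 44.6 in A, 27.5 in BB, 25.2 in AB and 56.2 in AABB. Both enzymes were therefore lower in BB and AB at the 2 stages. Dhcr7 was 14.3 in Null, 10.8 in B, 11.1 in A, 19.6 in BB, 16.0 in AB and 23.5 in AABB. Abca1 was 20.2 in Null, 31.6 in B, 32.7 in A, 25.6 in BB, 29.2 in AB and 14.4 in AABB, again lowest in wild type. Abcg1 was 6.28 in Null, 6.21 in B, 4.16 in A, 8.56 in BB, 6.59 in AB and 11.2 in AABB, highest in wild type, the opposite of its order at parturition. Nr1h3 was 59.6 in Null, 34.2 in B, 33.1 in A, 26.5 in BB, 36.4 in AB and 38.2 in AABB, within 2-fold of wild type. No gene of the list differed 2-fold between A and B at day 6 (0.135% of all genes higher in A, 0.247% lower), nor between Null and B (3.95% higher in Null, 6.41% lower) or Null and A (4.65% and 6.07%). Sc5d was 2-fold higher in AB than in BB, at 48.1 against 20.0 (1.73% of all genes higher, 0.988% lower). In the AB column at day 6 the skeletal muscle markers summed to 5907, against 99.6 in BB and 97.1 in AABB, and their part in the AB values was not tested.

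The 2 tables were made apart, so stages were set side by side only as ranks within a column. In wild type the 18 enzymes had a median percentile of 92.5 at parturition and 84.3 at day 6, and 16 of 18 ranked higher at parturition. The median over the 12757 genes compared at both stages was 71.6 and 71.8, and of these genes 6083 ranked higher at parturition and 6671 lower. Hsd17b7 differed most among the enzymes, at percentile 85.9 at parturition and 55.4 at day 6, then Tm7sf2, at 84.4 and 63.2. Mvk and Fdft1 were the 2 enzymes that ranked lower at parturition. All 5 LXR genes ranked lower at parturition in wild type, with a median of 67.3 against 84.7 at day 6. Abcg1 stood at 48.0 and 73.6, Nr1h3 at 67.3 and 91.1, and Abca1 at 57.3 and 78.2. In Null the enzymes ranked at a median of 83.2 at parturition and 78.8 at day 6, with 10 of 18 higher at parturition. The LXR genes in Null ranked at 88.7 and 86.0, with 2 of 5 higher. Of the 12757 genes in Null, 6234 ranked higher at parturition and 6509 lower.

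**Figure D5:**
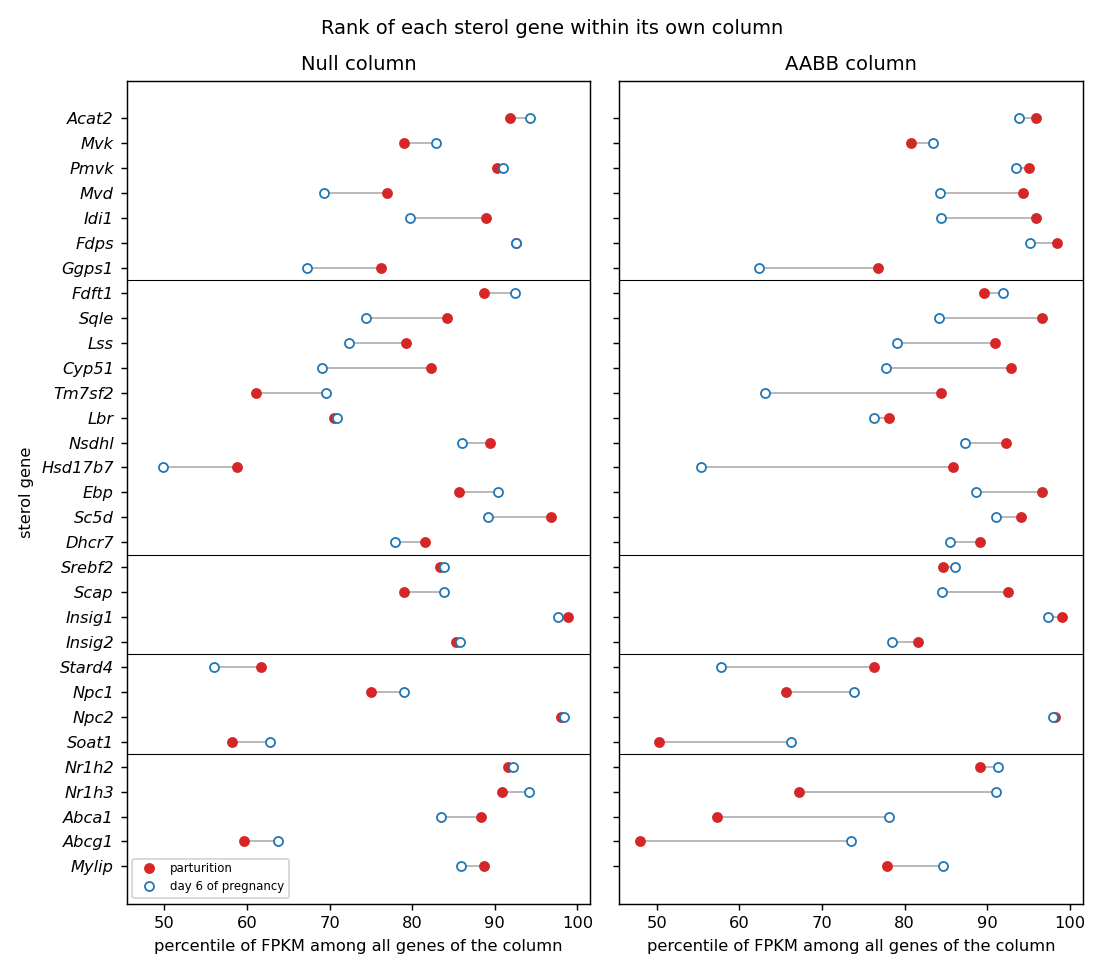
Percentile of each sterol gene's FPKM among all genes of its own column (x axis), at parturition (filled) and day 6 of pregnancy (open), in the Null column on the left and the AABB column on the right, with genes on the y axis in the order of the pathway. In AABB 16 of 18 enzymes lie further right at parturition and all 5 LXR genes further left. Of the 12757 genes compared at both stages, 6083 ranked higher at parturition in AABB and 6671 lower.

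Of 39 other genes of sterol metabolism on a wider list, 33 were compared at parturition. In Null 6 of them were 2-fold lower and 2 higher, in B 9 and 3, in A 9 and 3, in BB 6 and 2, and in AB 3 and 1. Over all compared genes the shares lower and higher were 10.7% and 19.0% in Null, 10.1% and 18.2% in B, 10.0% and 17.3% in A, 5.37% and 8.05% in BB, and 5.44% and 10.2% in AB. The median log2 ratio of the 33 genes was −0.11 in Null, −0.28 in B, −0.23 in A, 0.01 in BB and −0.07 in AB. Among those with the greatest difference between Null and AABB were Lipa, Cyp27a1, Tmem97, Apoe, Sc4mol, Nus1 and Acly. Sc4mol (now Msmo1), the methyl oxidase of the complex that holds Nsdhl and Hsd17b7, was 23.5 in Null, 15.1 in B, 20.2 in A, 40.0 in BB, 31.5 in AB and 60.7 scaled FPKM in AABB. Tmem97, a sterol-regulated membrane protein that binds Npc1, was 13.6 in Null, 12.5 in B, 12.8 in A, 30.5 in BB, 31.1 in AB and 61.1 in AABB. Both genes were highest in AABB, as most enzymes were. Acly, which makes cytosolic acetyl-CoA from citrate, was 409 in Null, 192 in B, 159.6 in A, 332 in BB, 285 in AB and 925 in AABB.

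Nus1, a subunit of the enzyme that elongates farnesyl diphosphate for dolichol, was 19.0 in Null, 21.4 in B, 22.0 in A, 33.9 in BB, 30.8 in AB and 45.2 scaled FPKM in AABB. Lipa, the lysosomal acid lipase that frees cholesterol from esters, was 47.0 in Null, 205 in B, 362 in A, 612 in BB, 417 in AB and 288 in AABB. Lipa was thus 2-fold lower in Null alone and 2-fold higher in BB alone. Apoe, an LXR target carried on lipoproteins, was 907 in Null, 1319.6 in B, 1254 in A, 701 in BB, 706 in AB and 282 in AABB, and Cyp27a1, which makes an oxysterol, was 11.9 in Null, 6.78 in B, 6.14 in A, 4.41 in BB, 3.12 in AB and 2.02 in AABB. Both were lowest in AABB, as the LXR genes were.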

How the data were processed

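Poly(A) RNA of mammary tissue from 31 samples (6 genotypes, 2 stages) was sequenced on a HiSeq 2000, per the labels' protocols. CASAVA and TopHat and the build mm9 are named in the submitters' processing notes. Versions, the annotation and the program that estimated FPKM are not given in the sources used here. The values deposited by the authors are FPKM per gene symbol in 2 tables, with 1 column per genotype that holds the authors' mean, so read depth and spread are unknown and no interval was computed.

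Columns of a stage were scaled to each other by their median ratio over genes of at least 1 FPKM in all 6 (10864 at parturition, 11733 at day 6). Genes of at least 1 FPKM in at least 2 columns were compared (13061 and 13367). The log2 ratio used a pseudocount of 1, and 2-fold was the call. The planned limma test, replicate block and leave-one-out fits need a column per sample and were replaced by these ratios. Alternatives were a pseudocount of 0.1, no filter, no scaling, and scaling set by genes of at least 5 FPKM.

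The 32 genes, the wider list and the marker lists were chosen with earlier results of these data known. Values per column are given for genes 2-fold off AABB in any comparison at parturition and for 6 regulators, and of the wider list for the 8 with the greatest Null to AABB ratio, 1 of which is not reported here. The role groups, the column orders, Null against B and A, and the 6 promoter motifs with the 180-base window were chosen after values were seen. Promoters are from RefSeq (GRCm38.p6), matched by symbol, and no mm9 coordinates were used. The calculation was tested on simulated data made from the AABB column, with as many genes raised as lowered in Null. Genes higher and lower were unequal in number in the real parturition columns, so the simulation does not check the scaling there. Python 3.11.15, numpy 2.4.6 and pandas 2.3.3 were used.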

Additional observations from a re-analysis of the deposited data

How the results depend on the processing

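No paired analysis was possible because each genotype has 1 column of means, and leaving out replicates could not be run for the same reason. Removing the filter on low values moved no count of called sterol genes. A count was taken as moved when it changed more than 1.5-fold, or to or from 0. Smaller changes of counts are mostly not listed here. With a pseudocount of 0.1, genes higher at parturition numbered 3 in BB (1 with a pseudocount of 1), and at day 6 genes lower numbered 2 in B (1) and genes higher 1 in AB (0). Without scaling, genes lower at parturition numbered 8 in Null (12), 11 in B (17) and 11 in A (17). In BB they numbered 8 (14) and in AB 3 (10). Genes higher at parturition then numbered 6 in Null (5) and 3 in BB (1). Genes higher in AB than in BB numbered 0 (1), and genes lower at day 6 numbered 1 in A (2). With scaling set by genes of at least 5 FPKM, genes higher at parturition numbered 2 in BB, and genes lower at day 6 0 in B, 1 in A and 1 in BB. AABB was then highest for 15 of 18 enzymes and B lowest for 9. Of 558 ratios of single genes, 106 passed 2-fold with scaling. Without it 31 of these did not and 5 others did. Of all 558 ratios 34 changed sign without scaling, none of them among the 106. Ratios were taken as unmoved when they shifted by under 0.25, a limit set here because no spread is known. Of 576 values (ratios of single genes and medians of the listed genes), 125 moved without scaling and 16 with a pseudocount of 0.1. All 576 were unmoved with no filter and with scaling set by genes of at least 5 FPKM. The fewer lower calls without scaling go with the shift of all genes given above. Depth is unknown, so the precision of low values such as Abcg1 and Soat1 in AABB cannot be given.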
